A study of Mus musculus with 6 samples.

Results

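Lipolysis in fat cells, the breakdown of stored triglycerides into glycerol and fatty acids, is set by receptors on the cell surface. The 6 receptors described here comprise 2 that drive it, the β1- and β3-adrenergic receptors (Adrb1 and Adrb3), and 4 that curb it, the hydroxycarboxylic acid receptors Hcar1 and Hcar2, the A1 adenosine receptor (Adora1) and the EP3 prostaglandin receptor (Ptger3). They were chosen by gene symbol from the 13116 genes of a table of epididymal adipose tissue, and all 6 were listed and passed the filter on low values that left 12847 genes for testing. RNA-seq was done on this visceral white fat depot from C57BL/6 mice, with 3 mice per group. HuRAKO mice (HuRflox/flox:AdipoQ-Cre+) carried floxed alleles of HuR (Elavl1), an RNA-binding protein that recognises AU-rich elements, together with a Cre transgene under the adiponectin promoter, which acts in adipocytes and leaves the other cells of the tissue with HuR. Control mice (HuRflox/flox:AdipoQ-Cre-) carried the same floxed alleles without the transgene. Mice of both groups were fed a high-fat diet (HFD) for 16 weeks, from the age of 8 weeks.

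Catecholamines from sympathetic nerves act on β-adrenergic receptors, which couple through the stimulatory G protein Gs to adenylyl cyclase. The cyclic AMP so made activates protein kinase A, which phosphorylates hormone-sensitive lipase and the droplet coat protein perilipin-1 and thereby turns lipolysis on. Receptors coupled to the inhibitory G protein Gi lower cyclic AMP and hold lipolysis back, among them Hcar1, which senses lactate, Hcar2, which senses the ketone body β-hydroxybutyrate and binds the drug niacin, Adora1, which senses adenosine, and Ptger3, which senses prostaglandin E2. In rodents Adrb3 is the main β-adrenergic receptor of white fat.

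Of these 6 genes, Hcar2 alone passed the test: it averaged 6.69 ± 1.53 FPKM in HuRAKO mice and 14.5 ± 2.34 FPKM in control mice (SD, n = 3 each). FPKM, the number of fragments scaled to transcript length and to all mapped fragments, allows levels of different genes to be set beside each other. Adrb3, the most abundant of the 6, was lower in each HuRAKO mouse than in each control mouse but did not pass. Adrb1, Hcar1, Adora1 and Ptger3 overlapped between the groups. Log2(FPKM + 1) was tested with limma; adding 1 shrinks the fold changes of weakly expressed genes. A gene was called by the study's criteria, a fold above 1.5 with p below 0.05 before adjustment. Over all tested genes 174 were called lower (1.35%) and 163 higher (1.27%), 1031 genes had an unadjusted p under 0.05, and after Benjamini-Hochberg adjustment 1 gene (0.00778%) remained under 0.05, which was none of the 6. A call here therefore rests on the unadjusted p.

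**Figure D1:**
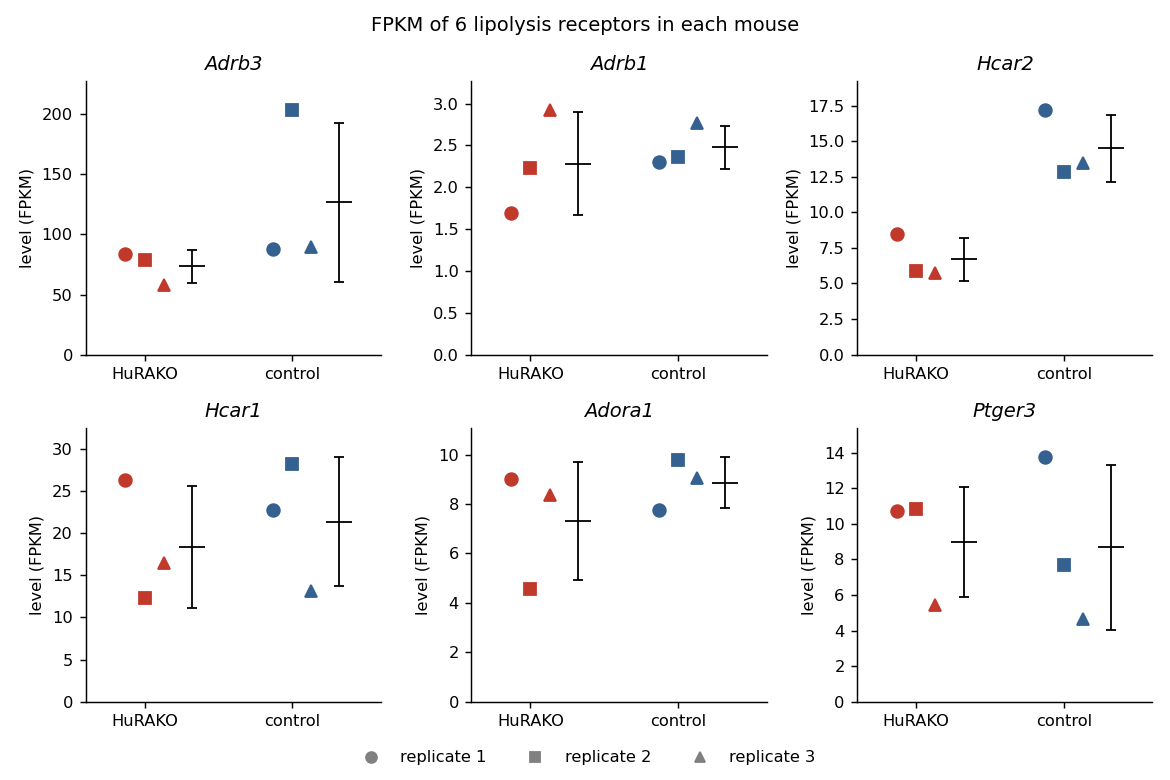
FPKM of the 6 receptors in each mouse, with HuRAKO (red) left of control (blue) in each panel, a marker shape for each replicate number, and the mean with its SD as a black bar beside the points (n = 3 mice per group). The 3 HuRAKO mice lie below the 3 control mice for Hcar2 (5.75 to 8.45 against 12.9 to 17.2 FPKM) and for Adrb3, whose control mean is raised by control replicate 2 at 203 FPKM.

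The libraries set limits to what follows. Elavl1 itself had 4.66, 5.24 and 5.64 FPKM in the mice labelled HuRAKO, against 3.93, 4.85 and 4.98 FPKM in the mice labelled control (log2 fold change 0.15, adjusted p = 0.807 from limma). The whole-gene FPKM of the targeted gene thus did not show the deletion in this mixed tissue, and every direction below rests on the labels. The tissue label fitted its markers: the 8 adipocyte markers summed to 7159 to 8960 FPKM in HuRAKO mice and 6551 to 8830 FPKM in control mice, with 0 of 8 called and 0 at an unadjusted p under 0.05. Sums of 8 markers each did not overlap between the groups for mesothelial cells (114 to 164 FPKM in HuRAKO mice and 209 to 351 FPKM in control mice, 7 of 8 called lower), endothelial cells (246 to 335 against 157 to 197 FPKM, 3 of 8 called higher) and smooth muscle cells and pericytes (307 to 477 against 177 to 237 FPKM, 3 of 8 called higher). The smooth muscle and pericyte sum did not hold for each of its markers. Of these 8, 7 had a log2 fold change above 0 and 1 below, and 3 did not overlap between the groups. Rgs5 had 26.2 FPKM in HuRAKO replicate 3, below each control mouse (47.3, 32.6 and 28.1 FPKM). Control replicate 3 stood apart, with correlations of 0.932 to 0.945 with the other mice and a macrophage marker sum of 2186 FPKM. In bulk tissue, fewer cells of a type and less RNA per cell cannot be told apart.

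The levels of the 6 receptors ranged widely. Adrb3 averaged 100.2 FPKM over the 6 mice, higher than 97.4% of all listed genes. Hcar1 followed at 19.8 FPKM, Hcar2 at 10.6, Ptger3 at 8.83, Adora1 at 8.09 and Adrb1 at 2.38 FPKM, the last being higher than only 24.7% of listed genes. Adrb3 was above Hcar1, and Adora1 above Adrb1, in 6 of 6 mice and without overlap of their ranges. For the neighbours between them, the ranges over the 6 mice overlapped, and their differences were not tested. Within HuRAKO mice Hcar1 (12.3 to 26.3 FPKM) lay above Hcar2 (5.75 to 8.45 FPKM), whereas in control mice Hcar1 and Hcar2 overlapped. Hcar1 exceeded Hcar2 in 5 of 6 mice, Hcar2 exceeded Ptger3 in 4 and Ptger3 exceeded Adora1 in 3, and the exception to the first was control replicate 3.

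Adrb3 (ENSMUSG00000031489.15, chr8:27225776-27250616, minus strand, GRCm38) encodes the receptor through which catecholamines act most strongly on white fat of rodents. It had 83.7, 79.2 and 57.9 FPKM in the 3 HuRAKO mice, against 87.8, 203 and 89.4 FPKM in the 3 control mice. The highest HuRAKO mouse was just below the lowest control mouse, and the distance between the means came largely from control replicate 2. The means were 73.6 ± 13.7 FPKM in HuRAKO mice and 127 ± 66.2 FPKM in control mice, 58.0% of control, with a log2 fold change of -0.68 ± 0.35 (SE) and a 95% interval of -1.52 to 0.16. The difference did not pass (p = 0.0969, adjusted p = 0.7 from limma, exact permutation p = 0.1, the smallest that 3 against 3 mice allow). Groups that do not overlap, with HuRAKO lower, were found for 7.68% of all tested genes. Without control replicate 2 the log2 fold change was -0.28. Weighting the mice by their noise (limma's array weights) took it past the thresholds, at -0.92 with adjusted p = 0.445 from limma. Values taken relative to the adipocyte markers did so too (-0.72, adjusted p = 0.9999 from limma). Per 1000 FPKM of the summed adipocyte markers, however, the groups overlapped (exact permutation p = 0.2). On that measure Adrb3 averaged 9.14 FPKM in HuRAKO mice and 15.6 FPKM in control mice, and HuRAKO replicate 1, at 11.7 FPKM, was above control replicate 1.

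The table of transcripts listed 3 for Adrb3, and the lower value was in the longest. Adrb3-201 had 66.4, 68.6 and 42.1 FPKM in HuRAKO mice, against 82.2, 179 and 82.3 FPKM in control mice, again without overlap (log2 fold change -0.88 ± 0.38, adjusted p = 0.757 from limma). With the replicate number as a block it passed the thresholds (adjusted p = 0.727 from limma), as 4.59% of the 23233 tested transcripts did in either direction without the block. Adrb3-203 had 37.1, 27.1 and 31.5 FPKM in HuRAKO mice, against 21.05, 67.4 and 24.2 FPKM in control mice, with a log2 fold change of -0.04 ± 0.45. Adrb3-202 was low, between 2.41 and 6.69 FPKM in the 6 mice.

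As a share of the FPKM summed over its transcripts, Adrb3-201 took 60.6%, 68.6% and 55.2% in HuRAKO mice, against 77.6%, 70.8% and 75.6% in control mice. Here the groups did not overlap (61.5 ± 6.74% in HuRAKO mice and 74.7 ± 3.50% in control mice, exact permutation p = 0.1, the smallest possible), though replicate 2 of each group lay close together. How often the transcripts of other genes, or their shares, separate the groups was not counted. The share of Adrb3-203 was higher in HuRAKO mice, at 33.8%, 27.1% and 41.3%, against 19.9%, 26.6% and 22.2% in control mice. These shares are parts of a whole, so a lower share of one transcript goes with a higher share of the others. They are also estimates, since reads from shared exons must be divided between transcripts, and the 3 transcripts summed to 1.26 to 1.31 times the FPKM of the gene in HuRAKO mice and 1.21 to 1.25 times in control mice, which did not overlap either.

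**Figure D2:**
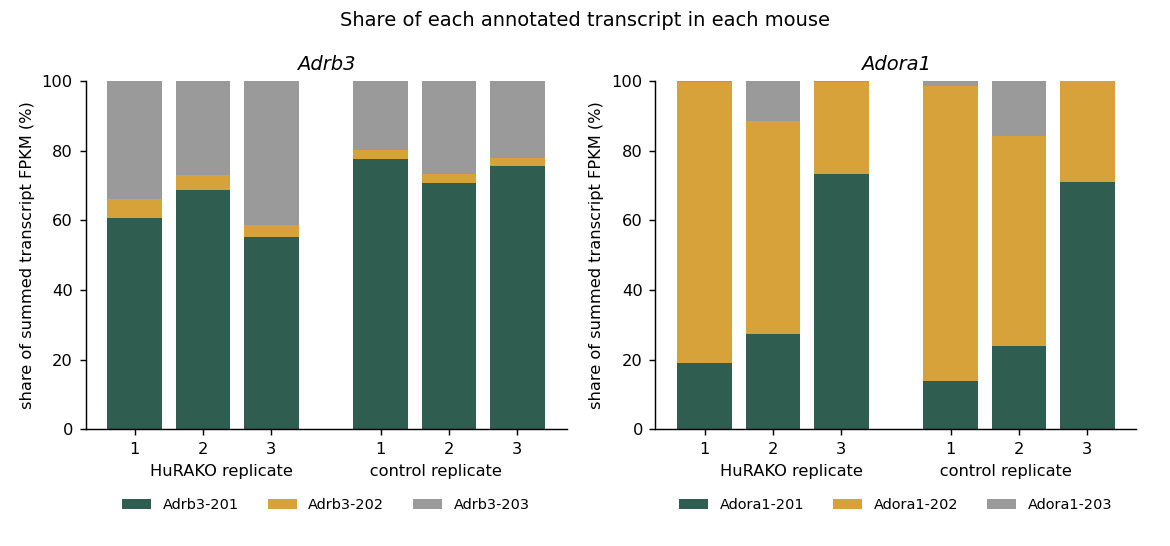
Share of each annotated transcript in the summed transcript FPKM of Adrb3 (left) and Adora1 (right), in percent, with 1 bar per mouse and HuRAKO mice left of control mice. For Adrb3 the share of Adrb3-201 was 55.2% to 68.6% in HuRAKO mice and 70.8% to 77.6% in control mice, whereas the Adora1 shares were alike in mice with the same replicate number.

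In GENCODE M21 the coding sequences of Adrb3-201 and Adrb3-203 were identical (1203 bases with the stop codon), and the pair differed in the untranslated ends: 811 bases before and 781 after the coding sequence in Adrb3-201, 164 and 497 in Adrb3-203. Adrb3-202 shared the first 1163 coding bases and then ended in another exon. The ends are shown because they tell the protein forms apart, with the last 20 shared bases in lower case and the bases of each transcript's own, up to the stop codon, in capitals. They lie within chr8:27226754-27227276 and chr8:27226845-27227276 (GRCm38, minus strand), joined across an intron.
Adrb3-201: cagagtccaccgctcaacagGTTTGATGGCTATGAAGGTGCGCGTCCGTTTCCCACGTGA
Adrb3-202: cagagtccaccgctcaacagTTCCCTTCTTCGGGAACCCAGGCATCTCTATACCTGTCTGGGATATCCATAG
The second ending, 52 bases long against 40, gives a receptor with a different tail inside the cell. Adrb3-202 made up 5.64%, 4.31% and 3.49% of the summed FPKM in HuRAKO mice, against 2.54%, 2.64% and 2.21% in control mice, which did not overlap (exact permutation p = 0.1). Again, how often this occurs for transcripts of other genes was not counted. The antisense gene Gm45470 overlaps the 5′ end of Adrb3-201 (chr8:27228686-27240332, plus strand). Gm45470 was not among the listed genes. The study's methods name a stranded library kit and the labels another. Whether fragments were assigned by strand is not given in the sources used here, and without strand the fragments of the pair cannot be told apart.

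Adrb1 (ENSMUSG00000035283.4, chr19:56722372-56724862, plus strand), the β-adrenergic receptor best known from the heart, was the lowest of the 6. It had 1.69, 2.23 and 2.92 FPKM in HuRAKO mice, against 2.30, 2.36 and 2.77 FPKM in control mice. The HuRAKO values lay on both sides of the control values. The log2 fold change was -0.10 ± 0.16 (95% interval -0.48 to 0.28, adjusted p = 0.901 from limma, exact permutation p = 0.7), on the scale that shrinks the folds of a gene as low as this. Adrb3 exceeded Adrb1 in each mouse and made up 95.2% to 98.0% of their summed FPKM in HuRAKO mice and 97.0% to 98.9% in control mice. The sum of both was 85.4, 81.4 and 60.9 FPKM in HuRAKO mice, against 90.1, 206 and 92.2 FPKM in control mice, and so repeats the pattern of Adrb3. Over the aligned bases the coding sequences of Adrb3-201 and Adrb1-201 were 67.4% identical, with a longest common run of 30 bases. That run is shown in capitals, with 18 bases on either side, as the longest exact match of the pair (coding bases 883 to 948 of Adrb3-201 and 955 to 1020 of Adrb1-201, counted from the first base of the start codon). Whether reads were assigned to the wrong receptor was not tested.
Adrb3-201: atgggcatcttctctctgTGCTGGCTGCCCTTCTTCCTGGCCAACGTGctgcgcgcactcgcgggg
Adrb1-201: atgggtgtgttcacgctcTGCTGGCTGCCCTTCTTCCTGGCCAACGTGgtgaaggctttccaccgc

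Hcar2 (ENSMUSG00000045502.6, chr5:123863570-123865499, minus strand), a single-exon gene, had 8.45, 5.87 and 5.75 FPKM in the 3 HuRAKO mice, against 17.2, 12.9 and 13.5 FPKM in the 3 control mice. The highest HuRAKO mouse was well below the lowest control mouse, and the HuRAKO mean was 46.2% of the control mean. The log2 fold change was -1.02 ± 0.18 (95% interval -1.45 to -0.58, p = 0.00104, adjusted p = 0.339 from limma, exact permutation p = 0.1, the smallest possible). By unadjusted p it stood at place 34 of the tested genes and at place 13 of those with a lower value. It was called in each of 16 alternative settings, including the 6 that left out 1 mouse each, with log2 fold changes between -1.18 and -0.90 and adjusted p between 0.224 and 0.916. Hcar2-201 was its sole listed transcript and carried the same values.

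Hcar2 is made by adipocytes and also by macrophages and neutrophils. Taken per 1000 FPKM of the summed adipocyte markers, Hcar2 had 1.18, 0.65 and 0.68 FPKM in HuRAKO mice, against 1.96, 1.46 and 2.05 FPKM in control mice, so the groups stayed apart. Macrophage markers summed to 885 to 1342 FPKM in HuRAKO mice and 747 to 2186 FPKM in control mice, and 0 of 8 were called or had an unadjusted p under 0.05 in limma. Of 8 neutrophil markers 4 were listed, with sums of 8.90 to 26.7 FPKM in HuRAKO mice and 5.25 to 38.7 FPKM in control mice, and 0 of 4 were called or under 0.05. The macrophage markers turned on single mice: without control replicate 3 their median log2 fold change was 0.43, with 2 called higher, and without control replicate 2 it was -0.37, with 1 called lower (Itgam). Hcar2 was called lower in both settings. Of the 8 macrophage markers, 3 had a log2 fold change above 0 and 5 below. Itgam was at -0.97 (adjusted p = 0.672 from limma), and relative to the adipocyte markers it passed the thresholds (-1.015). Neither the macrophage nor the neutrophil sum separated the groups, and the mesothelial sum was lower in HuRAKO mice. The part of macrophages, neutrophils or mesothelial cells in the Hcar2 difference was not tested.

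Hcar1 (chr5:123876736-123880020, minus strand), the lactate receptor, is the neighbour of Hcar2, with 11236 bases and 0 annotated genes between them. It had 26.3, 12.3 and 16.4 FPKM in HuRAKO mice, against 22.7, 28.2 and 13.2 FPKM in control mice. The groups overlapped over most of their range. The log2 fold change was -0.21 ± 0.35 (95% interval -1.06 to 0.64, adjusted p = 0.902 from limma, exact permutation p = 0.7), which leaves room for changes of over 1.5-fold either way. The ratio of Hcar2 to Hcar1 FPKM was 0.32, 0.48 and 0.35 in HuRAKO mice, against 0.76, 0.46 and 1.02 in control mice, and control replicate 2 fell among the HuRAKO mice. The difference between the 2 genes' changes thus did not separate the groups fully (exact permutation p = 0.2 for the ratio).

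The coding sequences of Hcar2 (1083 bases) and Hcar1 (1056 bases) were 68.7% identical over the aligned bases, and their whole transcripts had no common run longer than 18 bases. It is shown in capitals, as the longest exact match of the neighbours, within coding bases 667 to 720 of each, at chr5:123864719-123864772 for Hcar2 and chr5:123878907-123878960 for Hcar1 (GRCm38, minus strand).
Hcar2-201: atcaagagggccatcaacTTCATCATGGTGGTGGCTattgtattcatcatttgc
Hcar1-201: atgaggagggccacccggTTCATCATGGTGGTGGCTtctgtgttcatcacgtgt

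Adora1 (chr1:134199223-134235431, minus strand) restrains lipolysis when adenosine builds up around fat cells. It had 9.01, 4.57 and 8.36 FPKM in HuRAKO mice, against 7.77, 9.79 and 9.04 FPKM in control mice. HuRAKO replicate 2 was the lowest of all, and the other 2 HuRAKO mice lay within the control range. The log2 fold change was -0.29 ± 0.24 (95% interval -0.86 to 0.29, adjusted p = 0.805 from limma, exact permutation p = 0.4). Without HuRAKO replicate 2 it was -0.022.

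The transcripts of Adora1 did not sort by group. Adora1-201 took 19.0%, 27.4% and 73.2% of the summed transcript FPKM in HuRAKO replicates 1, 2 and 3, against 13.8%, 23.8% and 71.1% in control replicates 1, 2 and 3. Mice with the same replicate number were thus closer to each other than to the mice of their own group, and replicate 3 differed most in both. Adora1-202 took most of the rest, and Adora1-203 averaged 0.467 FPKM, under the limit for testing. All 3 encode the same 981 coding bases with the stop codon, and Adora1-202 has a 3′ UTR of 3726 bases, against 1602 in Adora1-201. Mybph, on the opposite strand, overlaps the last part of the longer UTR (chr1:134199223-134201232), so that fragments from there cannot be told apart without strand. Mybph was not among the listed genes. What the replicate number stands for is not given in the sources used here.

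Ptger3 (chr3:157566892-157645888, plus strand) couples prostaglandin E2 to Gi. It had 10.7, 10.8 and 5.42 FPKM in HuRAKO mice, against 13.7, 7.67 and 4.63 FPKM in control mice. The HuRAKO values lay inside the control range. The log2 fold change was 0.10 ± 0.40 (95% interval -0.87 to 1.07, adjusted p = 0.967 from limma, exact permutation p = 0.9), and its sign turned without HuRAKO replicate 1 (-0.040), HuRAKO replicate 2 (-0.048) or control replicate 3 (-0.23). Replicate 3 was the lowest mouse in each group.

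Ptger3 is known for splice forms that differ in the tail inside the cell, and 2 were listed. Ptger3-202 took 89.6%, 88.1% and 97.1% of the summed transcript FPKM in HuRAKO mice, against 93.4%, 91.7% and 90.1% in control mice, so the same form prevailed in each mouse. The transcripts had the opposite sign to the gene, with log2 fold changes of -0.27 ± 0.43 for Ptger3-202 and -0.10 ± 0.33 for Ptger3-201 (adjusted p = 0.92 and 0.969 from limma). They summed to 1.15 to 1.25 times the FPKM of the gene in HuRAKO mice and 1.57 to 1.63 times in control mice, without overlap, so the gene and transcript values of Ptger3 were not on the same footing in the groups, and its direction was not settled. Its end and that of Ptger3-201 are shown because they define the 2 receptors, with the last 20 of 1010 shared coding bases in lower case and each form's own bases up to the stop codon in capitals (within chr3:157605127-157643955, GRCm38, plus strand, joined across introns).
Ptger3-202: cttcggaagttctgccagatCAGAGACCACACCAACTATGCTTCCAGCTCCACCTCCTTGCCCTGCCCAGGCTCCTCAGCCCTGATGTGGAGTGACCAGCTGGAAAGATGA
Ptger3-201: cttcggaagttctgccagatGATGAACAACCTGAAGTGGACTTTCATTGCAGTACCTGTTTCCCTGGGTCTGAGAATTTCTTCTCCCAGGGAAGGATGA
Ptger3-201 had 0.20 to 1.49 FPKM in HuRAKO mice and 0.72 to 1.47 FPKM in control mice.

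**Figure D3:**
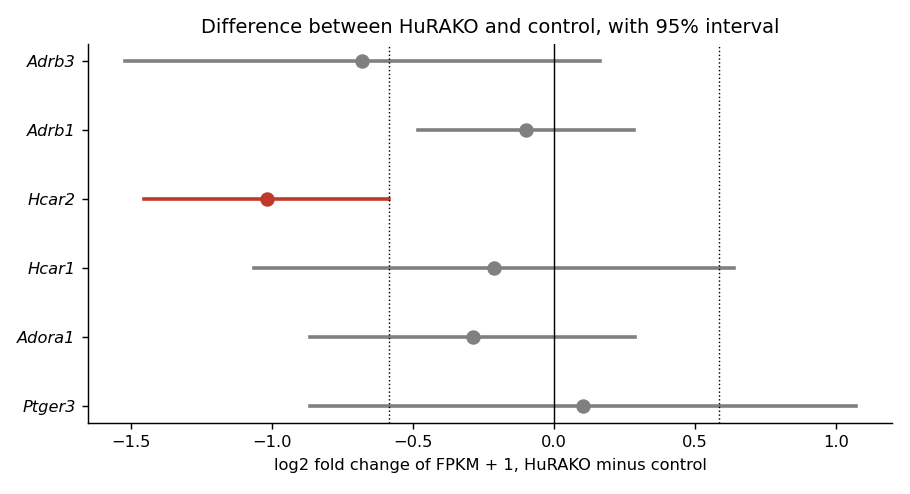
Log2 fold change of FPKM + 1, HuRAKO minus control, for each receptor (dot) with its 95% interval from limma (line), red where called and grey where not, and dotted lines at a fold of 1.5. The interval of Hcar2 runs from -1.45 to -0.58 and is the only one of the 6 that leaves out 0.

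Taken as a group, the 4 curbing receptors summed to 54.5, 33.5 and 35.9 FPKM in HuRAKO mice, against 61.4, 58.5 and 40.3 FPKM in control mice. The sums overlapped. Within them, Hcar2 made up 15.5%, 17.5% and 16.0% in HuRAKO mice, against 28.0%, 22.0% and 33.4% in control mice, without overlap. Hcar1 was the largest part in each HuRAKO mouse (36.6% to 48.3%), and in control replicate 3 Hcar2 slightly exceeded it. The ratio of the curbing to the driving sum was 0.64, 0.41 and 0.59 in HuRAKO mice, against 0.68, 0.28 and 0.44 in control mice, and did not separate the groups. In 5 of 6 receptors the log2 fold change was below 0, against a median of -0.01 over all tested genes.

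HuR binds AU-rich elements, whose core is the pentamer ATTTA, mostly in 3′ UTRs, so the longest annotated 3′ UTR of each receptor was searched for it on the transcribed strand. Of the 6, 5 held it, beside 69.8% of the 12706 tested genes with an annotated 3′ UTR. Adrb3 held 0 in 781 bases, Hcar2 held 1 in 786, Hcar1 held 2 in 1835, Adora1 held 2 in 3726, Adrb1 held 3 in 1378 and Ptger3 held 4 in 1933 bases. The UTR of Ptger3 searched is that of the minor Ptger3-201, and the 878 bases of the prevailing Ptger3-202 held 1. Per 1000 bases Hcar2 had 1.27, near the median of 1.30 over all these genes, and Adrb1 had the most of the 6 at 2.18. Of the 3 sites of Adrb1, only the first lies before the end that the deposited table gives (chr19:56724862). Its density is thus that of the longer GENCODE M21 annotation. The site of Hcar2, the receptor that was lower, is printed with the 2 sites of Adrb1 that extend to TATTTAT, the form nearest to the classic element among the 6; capitals mark ATTTA. They lie at chr5:123864207-123864231 on the minus strand and at chr19:56724554-56724578 and chr19:56725068-56725092 on the plus strand (GRCm38), the last beyond the end that the deposited table gives for Adrb1.
Hcar2: ggagaatcgaATTTAgagaaacggc
Adrb1, first: taaacagcttATTTAtgtatcaata
Adrb1, last: gtgaccaagtATTTAtactctggtg
A match is not a binding site. In RefSeq promoter windows (GRCm38.p6, 250 bases before to 50 after the start), Adora1, Ptger3, Hcar1 and Adrb1 had 5 entries (Hcar2 and Adrb3 had none), and 0 of these 5 held AGGTCA on either strand, the half-site of PPARγ and other nuclear receptors, beside 16.3% of all 32851 windows.

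The rest of the pathway showed few calls. Of 12 other receptors reported to drive lipolysis, 0 were called and 0 had an unadjusted p under 0.05 in limma, with a median log2 fold change of -0.04. The smallest p were those of Sctr, the secretin receptor, with 6.22, 7.66 and 11.3 FPKM in HuRAKO mice against 9.68, 12.98 and 9.06 FPKM in control mice, and of the melanocortin receptor Mc5r.

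Among 11 other receptors reported to curb lipolysis 7 were listed and tested, with 1 called lower and a median of -0.18, and 3 had an unadjusted p under 0.05 in limma: Ffar2, Npy1r and Cnr1. The call was Ffar2, a Gi-coupled receptor for short-chain fatty acids, with 9.95, 11.1 and 9.23 FPKM in HuRAKO mice, against 17.1, 19.3 and 12.8 FPKM in control mice. The groups did not overlap, and the log2 fold change was -0.64 ± 0.16 (adjusted p = 0.445 from limma). Its call was lost without control replicate 2, at -0.52, and without HuRAKO replicate 3, where the fold was below 1.5. Without control replicate 3 the list had 3 called lower, Ffar2, Ffar4 and Cnr1. With the replicate block it had 1 called higher as well, Npr3, the clearance receptor for natriuretic peptides. Npy1r, a Gi-coupled receptor for neuropeptide Y, went the other way at a low level, with 1.15, 1.5 and 1.24 FPKM in HuRAKO mice, against 0.47, 0.85 and 0.56 FPKM in control mice. It did not overlap either (HuRAKO higher in 7.04% of all tested genes), and its fold on the log2(FPKM + 1) scale was under 1.5 (log2 fold change 0.50, adjusted p = 0.442 from limma), a limit it passed without control replicate 2 or with a pseudocount of 0.1. Cnr1, the cannabinoid receptor, was low, with 0.67, 0.62 and 0.12 FPKM in HuRAKO mice, against 1.49, 1.26 and 0.66 FPKM in control mice (log2 fold change -0.54 ± 0.22, adjusted p = 0.619 from limma). Cnr1, Npr3 and Ffar4 were named after their values were seen.

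Of 6 tested adenosine and prostanoid receptors outside the chosen set, 1 was called higher: Adora2a, a Gs-coupled adenosine receptor, with 7.92, 14.8 and 11.9 FPKM in HuRAKO mice, against 7.85, 7.13 and 5.70 FPKM in control mice. HuRAKO replicate 1 was barely above the highest control mouse (log2 fold change 0.64 ± 0.23, adjusted p = 0.575 from limma). The call held in 2 of 6 settings that left out 1 mouse, and was lost without HuRAKO replicate 2 or 3 or control replicate 2 or 3, with a range of 0.45 to 0.86, and without moderation of the variance. Ptger2, a Gs-coupled receptor for prostaglandin E2, had 1.71, 2.23 and 2.74 FPKM in HuRAKO mice, against 1.41, 1.11 and 1.63 FPKM in control mice (log2 fold change 0.43, adjusted p = 0.574 from limma). Its fold was under 1.5 on the log2(FPKM + 1) scale, and with a pseudocount of 0.1 it was called (0.64). Of the 6, 5 had a log2 fold change above 0 and 1 below. The last was the adenosine receptor Adora2b, named after its values were seen. Adora2b had 1.22, 0.68 and 0.59 FPKM in HuRAKO mice, against 1.56, 0.998 and 3.15 FPKM in control mice (log2 fold change -0.61 ± 0.28, adjusted p = 0.652 from limma). Without control replicate 2 the list had 0 called higher and 1 called lower, Adora2b (-0.85). Adora2a is also known in endothelial cells, whose marker sum was higher in HuRAKO mice; the part of these cells in its difference was not tested.

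Downstream of the receptors, 0 of 20 G protein subunits and adenylyl cyclases were called and 0 had an unadjusted p under 0.05 in limma (median 0.10), with Adcy4 and Gnai2 at the smallest p. Calls, all higher, appeared for Adcy4 and Adcy5 without HuRAKO replicate 1, Adcy7 without control replicate 3 and Gnao1 without HuRAKO replicate 3. Adcy5, Adcy7 and Gnao1 were named after their values were seen. Of 25 protein kinase A subunits, anchoring proteins and phosphodiesterases, 1 was called, Pde2a, which breaks down cyclic AMP and cyclic GMP. It had 32.0, 39.0 and 43.8 FPKM in HuRAKO mice, against 24.1, 4.74 and 21.1 FPKM in control mice (log2 fold change 1.40 ± 0.55, adjusted p = 0.608 from limma). The size of the difference came largely from control replicate 2, without which it was 0.73 and still called. The call was lost when any 1 HuRAKO mouse was left out, with a pseudocount of 0.1 and without moderation of the variance. The marker sums of endothelial cells and of smooth muscle cells and pericytes were also higher in HuRAKO mice, and the part of these cells in the Pde2a difference was not tested. Pde8a, which breaks down cyclic AMP, had 14.6, 12.6 and 12.7 FPKM in HuRAKO mice, against 11.9, 10.3 and 10.7 FPKM in control mice, without overlap and not called (log2 fold change 0.25 ± 0.11, adjusted p = 0.636 from limma). Of 19 desensitising kinases, arrestins and G protein regulators, 0 were called (1 with the replicate block, Rgs4, higher, named after its values were seen) and 2 had an unadjusted p under 0.05 in limma. These, Grk5 and Grk3, kinases that mark active receptors for arrestin, had log2 fold changes of 0.43 and 0.35 at folds under 1.5, with adjusted p of 0.584 and 0.592 from limma.

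Of 26 enzymes and carriers that make, clear or move the receptors' ligands, 1 was called. This was Ldhb, a subunit of lactate dehydrogenase, with 26.8, 20.4 and 18.5 FPKM in HuRAKO mice, against 35.3, 40.6 and 26.0 FPKM in control mice. HuRAKO replicate 1 exceeded control replicate 3 (log2 fold change -0.60 ± 0.21, adjusted p = 0.541 from limma), and the call held in 2 of 6 settings that left out 1 mouse, being lost without HuRAKO replicate 2 or 3 or control replicate 1 or 2, with FPKM scaled to equal sums and without moderation of the variance. Hpgd, which degrades prostaglandin E2, had 55.3, 121 and 62.5 FPKM in HuRAKO mice, against 49.6, 54.8 and 29.8 FPKM in control mice, and passed the thresholds with the replicate block (log2 fold change 0.78, adjusted p = 0.65 without and 0.455 with it, from limma), relative to the adipocyte markers and without HuRAKO replicate 1. Of 16 lipolytic enzymes and droplet proteins, on which the receptors act in the end, 0 were called and 1 had an unadjusted p under 0.05 in limma, with a median of 0.22. That 1 was Aqp7, the glycerol channel of fat cells, at 95.2, 117 and 96.2 FPKM in HuRAKO mice, against 67.8, 85.1 and 54.7 FPKM in control mice (log2 fold change 0.58, adjusted p = 0.51 from limma). Its fold was just under 1.5 and passed it with FPKM scaled to equal sums (0.61) or by median ratios (0.59), and without control replicate 2 or HuRAKO replicate 1 or 3. Plin2, a droplet coat protein, passed with the replicate block (log2 fold change 0.60, adjusted p = 0.619 without and 0.416 with it, from limma), with both scalings and array weights, and without HuRAKO replicate 1 or control replicate 3. Hilpda had the largest log2 fold change of the list (1.29, adjusted p = 0.636 from limma), with 9.35, 43.2 and 40.8 FPKM in HuRAKO mice, against 12.7, 8.42 and 9.16 FPKM in control mice. It passed with array weights, relative to the adipocyte markers and without HuRAKO replicate 1 (1.97). Cav1 and Cidea passed, higher, in some settings too. Hilpda, Cav1 and Cidea were named after their values were seen. Of the 16 genes, 13 had a log2 fold change above 0 and 3 below.

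**Figure D4:**
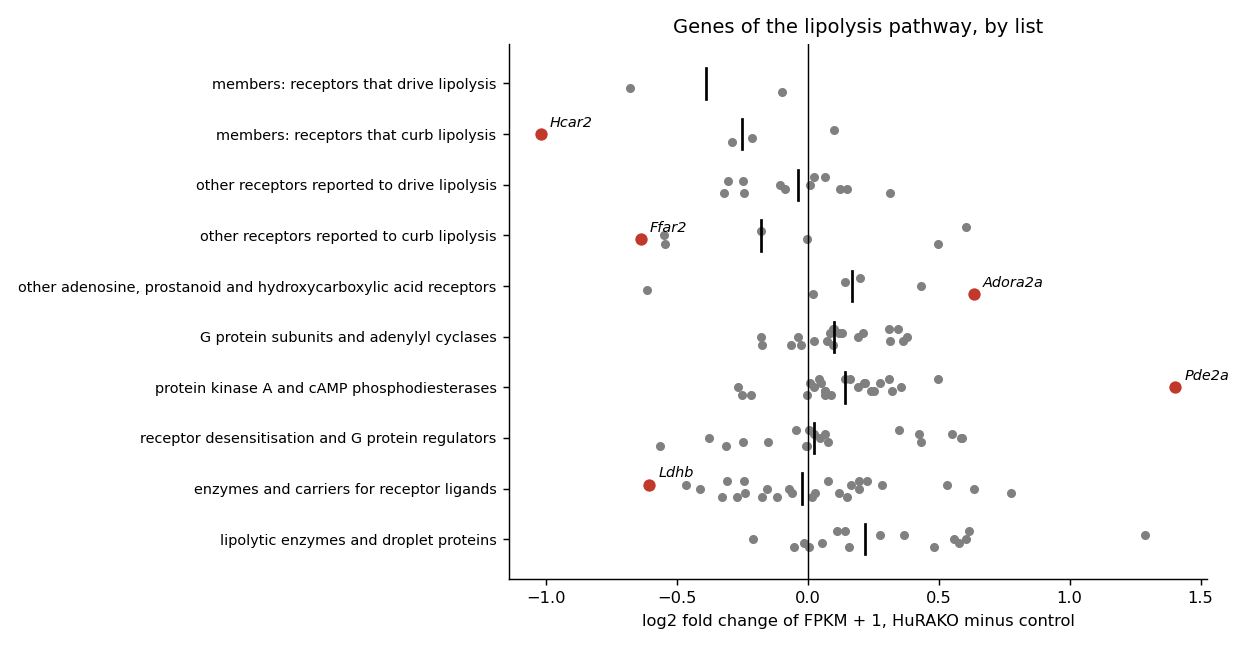
Log2 fold change of FPKM + 1, HuRAKO minus control, for each tested gene of the 2 sets of receptors and of the related lists (dots), with the median of each list as a black tick and called genes in red with their names. The 5 called genes are Hcar2, Ffar2 and Ldhb, which were lower, and Adora2a and Pde2a, which were higher.

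The genes whose levels followed each receptor most closely over the 6 mice were sought among the 7252 genes that averaged 5 FPKM or more, by Pearson's r of log2(FPKM + 1), as a description in which differences between the groups and between single mice both count. For Hcar2 these were Trim35 (r = 0.997, Spearman's rho = 1.0), Hmgn2 (r = 0.995) and Fgf1 (r = 0.993), of which Hmgn2 and Fgf1 were themselves called lower (log2 fold changes -0.68 and -1.17). Fgf1, fibroblast growth factor 1, had 31.7, 20.97 and 20.2 FPKM in HuRAKO mice, against 62.4, 46.8 and 56.7 FPKM in control mice. For Adrb3 they were Fads2, a fatty acid desaturase (r = 0.987), 1600014C10Rik and Fundc2, which shared its high value in control replicate 2. For Ptger3 they were Sucnr1 (r = 0.987), the Gi-coupled succinate receptor, Zfp423 and Acbd4, which were likewise lowest in replicate 3 of each group. Adrb1 was followed by Eea1, Ddx18 and Rpl37a, Hcar1 by Mrpl14, Apool and Abcb8, and Adora1 by Smim8, Kctd12 (listed at 0 in HuRAKO replicate 2) and Ddx19a, and 0 of these 9 were called or had an unadjusted p under 0.05 in limma. With 6 mice and so many genes, high values of r arise easily.

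**Figure D5:**
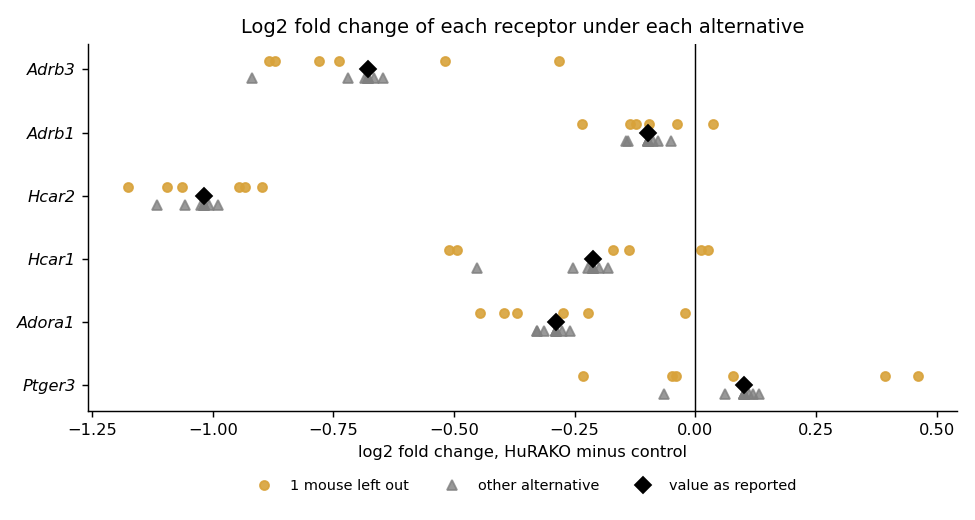
Log2 fold change, HuRAKO minus control, of each receptor as reported (black diamond), with 1 mouse left out (yellow dots, 6 each) and under the other alternatives of scaling, filter, pseudocount and variance (grey triangles, 10 each). Hcar2 stays between -1.18 and -0.90, Adrb3 moves between -0.92 and -0.28, and the values of Adrb1, Hcar1 and Ptger3 lie on both sides of 0.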

How the data were processed

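Total RNA of epididymal adipose tissue was sequenced in 3 HuRAKO and 3 control mice. The authors aligned reads with Bowtie 0.12.2 to GRCm38 (submitters' processing notes) and deposited FPKM per gene (13116) and per transcript (24946); the program that computed FPKM is not given in the sources used here. The labels and the methods name different library kits and instruments. FPKM sums per mouse were 250270 to 264055 over genes. Transcript values are fractional estimates (0.000447 FPKM for Adora1-203 in 1 mouse), so reads could not be recovered, the depth is unknown and no counting interval is given. An empty line was dropped from each table, and 0 value columns were left out.

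Log2(FPKM + 1) was tested in limma 3.58.1 (R 4.3.3) for genes, and separately transcripts, averaging 0.5 FPKM or more, HuRAKO minus control, two-sided, Benjamini-Hochberg adjusted over all tested; the procedure was tested on simulated data. Exact permutation tests used log2(FPKM + 1) for genes, log2 values for ratios and untransformed shares. The study describes its controls as littermates, but which of these mice shared a litter or cage is not given. The main test took them as unpaired, so p-values weigh the group difference against the spread between these mice. The members and lists were chosen with earlier results of these data known. All 6 members are named; of each list, every called gene or, where fewer than 2 were called, the 2 with the smallest p; and the 3 genes most alike per member. Alternatives covered pseudocount, filter, scaling, variance model, replicate block and each mouse left out. Mice with the same replicate number deviated together weakly from their group means, with correlations of 0.101, 0.175 and 0.22. Pairs with different numbers ranged from -0.209 to 0.106, so the lowest same-number pair lay within their range. The number was also used as a block, as an alternative chosen from these same data. Sequences came from GENCODE M21 transcripts (GRCm38), in which 5 of 6 member loci equal those of the table (Adrb1 is longer), and RefSeq promoter windows (GRCm38.p6). Figures were drawn with matplotlib 3.10.9.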

Additional observations from a re-analysis of the deposited data

How the results depend on the processing

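Hcar2 and Adora1 kept their direction and side of the thresholds in all 16 alternatives. Adrb3 kept its direction in all 16, and was past the thresholds relative to the adipocyte markers (-0.72) and with array weights (-0.92). Per 1000 FPKM of the summed adipocyte markers, the groups overlapped for Adrb3. The log2 fold change of Adrb1 was 0.036 without HuRAKO replicate 1, that of Hcar1 was 0.011 without control replicate 2 and 0.026 without HuRAKO replicate 2, and that of Ptger3 was -0.064 with array weights, -0.23 without control replicate 3, -0.040 without HuRAKO replicate 1 and -0.048 without HuRAKO replicate 2; the cause was not tested. With 1 mouse left out, values ranged from -0.88 to -0.28 for Adrb3, -0.24 to 0.036 for Adrb1, -1.18 to -0.90 for Hcar2, -0.51 to 0.026 for Hcar1, -0.45 to -0.022 for Adora1 and -0.23 to 0.46 for Ptger3. The count of called genes, 337, was 563 with a pseudocount of 0.1 (234 higher, 329 lower), 213 without moderation of the variance, and 371 to 518 with 1 mouse left out. The replicate block gave 384 called genes, left each fold change as it was (-1.02 for Hcar2, adjusted p = 0.404 from limma) and changed the call of none of the 6 receptors, while adding Hpgd, Plin2, Npr3, Rgs4 and the transcript Adrb3-201. Scaling moved the median of all genes by less than 0.1 on the log2 scale, but shifted the balance of calls, with 202 higher and 151 lower after scaling to equal sums and 141 higher and 205 lower relative to the adipocyte markers, against 163 and 174 as reported. FPKM gives no depth, so the precision of low values such as Adrb1 and the minor transcripts is not known.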
